A study of Mus musculus with 9 samples.

Results

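The potassium channel subunits described here are the genes named Kcn with a letter code and a number, which cover the pore-forming subunits of potassium channels and their auxiliary proteins. They were taken by symbol alone from the platform's annotation, without regard to their values. The rule found 158 of the 45101 probe sets on the array, and these named 80 of the 18194 genes that had a value. Of the 80 genes, 35 had 1 probe set and 45 had several, up to 5.

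The study ran 9 Affymetrix mouse arrays on neurospheres, free-floating colonies grown from dissociated tissue of C57BL/6J embryos at embryonic day 12.5 and used at passage 3, with 3 arrays a group. SCSC were grown from spinal cord and rNCSC from dorsal root ganglia (DRG), the sensory ganglia that arise from the neural crest, both in serum-free medium with 20 ng/ml bFGF, 20 ng/ml EGF, heparin, N2, B27 and antibiotics. BMP NCSC also came from DRG but received 10 ng/ml BMP4, so rNCSC and BMP NCSC differ by BMP4, whereas SCSC and BMP NCSC differ by tissue and BMP4 together. No label tells whether arrays of 1 group stem from different embryos, litters or dishes. The p-values therefore reflect the spread among these arrays alone, which may be technical. Of the markers checked, Olig1, Olig2, Sox10, Erbb3 and Ngfr went against the labelled crest tissue of rNCSC. Olig2, a factor of spinal cord progenitors, had means of 12.10, 12.14 and 1.47 in rNCSC, SCSC and BMP NCSC, Olig1 means of 13.57, 13.62 and 2.49, and the crest and glial factor Sox10 means of 4.14, 4.05 and 11.56. The Schwann cell markers Erbb3 (3.08, 3.17 and 11.81) and Ngfr (3.53, 3.45 and 5.86) had the order of Sox10. rNCSC thus matched SCSC in these genes, and their name below is that of the label. The other oligodendrocyte lineage markers were mixed. Cspg4 was higher in BMP NCSC (means of 8.29, 8.31 and 11.91 in rNCSC, SCSC and BMP NCSC), Cnp was lower there (10.88, 10.59 and 9.55), and Pdgfra was not called. The Schwann cell marker Cdh19 was higher in rNCSC (7.03, 7.60 and 7.74) than in SCSC (5.82, 5.99 and 6.35). Neither Cdh19 nor any other of the 7 Schwann cell markers was called between these groups. Levels at passage 3 do not show which tissue the spheres came from. All 3 groups are mixed cultures of unsorted spheres, in which fewer cells of a type and less RNA per cell cannot be told apart.

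Potassium channels let potassium ions leave or enter a cell and so set its resting potential and the shape of its electrical signals. Voltage-gated subunits open on depolarisation, and among them the Kcnd genes encode the pores of the rapidly inactivating A-type current, which works with the calcium-binding Kcnip proteins. Kcnma1 encodes the large-conductance channel that opens to calcium and voltage together, Kcnj genes encode inward rectifiers, and Kcnk genes encode tandem-pore leak channels. In the nervous system these channels are best known from neurons and astroglia, but progenitors, smooth muscle and cartilage cells carry them too.

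Most of the 80 genes were at the bottom of the scale. The deposited values are log2 numbers in which unexpressed transcripts are drawn together at low values, and a group mean under 4 is called the floor here. In all, 45 members (56.2%) had means under 4 in each of the 3 groups, against 35.2% of all genes with a value. By group, 52 members were under 4 in rNCSC, 53 in SCSC and 60 in BMP NCSC, which is 65%, 66.2% and 75% of them, against 41.2%, 41.4% and 39.9% of all genes. A value of 5 was reached by 12 to 15 members on an rNCSC array, by 13 or 14 on an SCSC array and by 11 on each BMP NCSC array. That is 13.8% to 18.8% of the members on an array, against 50% to 52.5% of all genes. At the level of probe sets, 103 of 158 were under 4 in all 3 groups (65.2%, against 38.1% of all named probe sets).

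Only 19 members reached 5 on at least 3 arrays and were tested, and 16 lay between that level and the floor. The voltage-gated pore subunits, of which there were 31, gave 8 tested members (Kcna2, Kcna6, Kcna7, Kcnc1, Kcnd2, Kcnd3, Kcnq3 and Kcnq5), 5 between and 18 at the floor. The 14 auxiliary subunits gave 6 (Kcnab2, Kcne4, Kcnip1, Kcnip2, Kcnip3 and Kcnmb4), with the other 8 at the floor. Of the 15 inward rectifiers, Kcnj10 and Kcnj11 were tested, 4 lay between and 9 were at the floor. Of the 12 tandem-pore subunits, Kcnk2 and Kcnk5 were tested, 3 lay between and 7 were at the floor. The 8 subunits of calcium- or sodium-activated channels gave Kcnma1 alone as a tested member, with 4 between and 3 at the floor. No Kcnf, Kcng, Kcns or Kcnu gene left the floor, nor did Kcnj2, Kcnj3 and Kcnj4, which encode inward rectifiers of heart and brain.

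**Figure D1:**
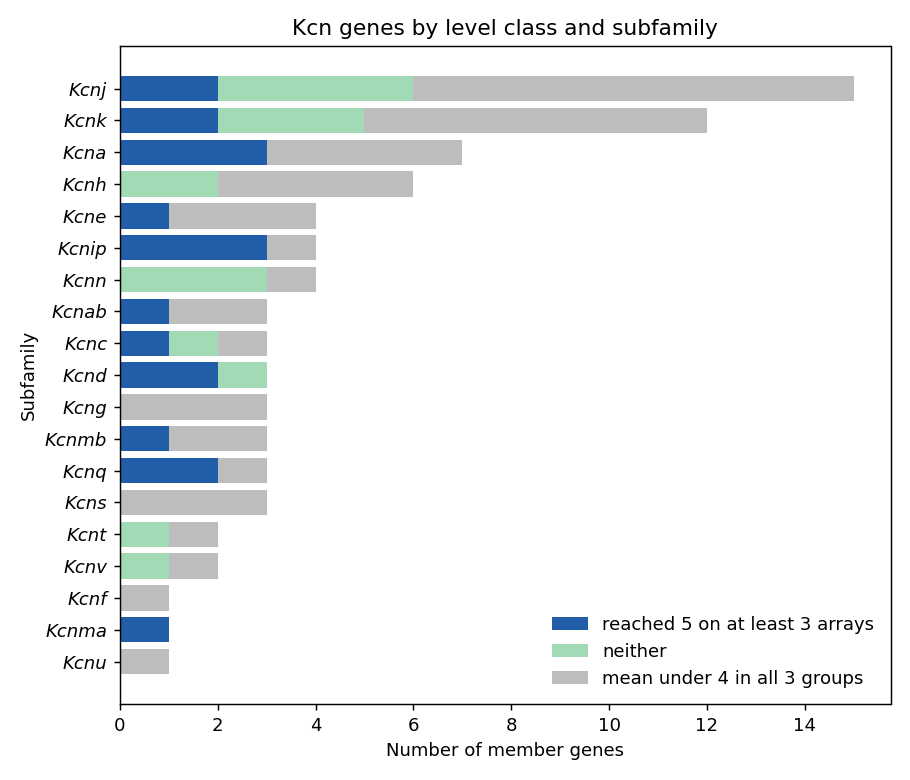
Number of member genes (horizontal axis) in each of the 19 subfamilies (vertical axis), split into genes that reached 5 on at least 3 arrays, genes with a mean under 4 in all 3 groups, and the rest. In the largest subfamily, Kcnj, 2 of 15 genes were tested, against 3 of 4 Kcnip genes and 2 of 3 Kcnd genes.

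The starts of 5 members are shown because they had the greatest differences between the groups, 3 towards rNCSC and SCSC (Kcnd2, Kcnd3 and Kcnc1) and 2 towards BMP NCSC (Kcnma1 and Kcnk5). Each run is the 250 bases before the gene's annotated start in RefSeq (GRCm38.p6), read 5′ to 3′ on the gene's strand. They lie at chr6:21215096-21215345 (plus strand) for Kcnd2, chr3:105451640-105451889 (plus) for Kcnd3, chr7:46396218-46396467 (plus) for Kcnc1, chr14:24004206-24004455 (minus) for Kcnma1 and chr14:20181783-20182032 (minus) for Kcnk5. Capitals mark any match, on either strand, to the letters of 5 motifs, and no matches overlapped in these runs. The motifs were the E-box CAGCTG, the SOX-type motif AACAAT and the GC-rich SMAD-type motif GGCGCC. The left part of the RE1 element bound by REST (TTCAGCACC) and the box TATAAA were searched as well.
Kcnd2: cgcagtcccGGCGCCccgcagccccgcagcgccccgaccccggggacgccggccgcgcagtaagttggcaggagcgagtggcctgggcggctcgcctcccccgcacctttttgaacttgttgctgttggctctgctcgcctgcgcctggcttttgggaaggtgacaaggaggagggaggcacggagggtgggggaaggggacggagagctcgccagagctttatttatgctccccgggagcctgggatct
Kcnd3: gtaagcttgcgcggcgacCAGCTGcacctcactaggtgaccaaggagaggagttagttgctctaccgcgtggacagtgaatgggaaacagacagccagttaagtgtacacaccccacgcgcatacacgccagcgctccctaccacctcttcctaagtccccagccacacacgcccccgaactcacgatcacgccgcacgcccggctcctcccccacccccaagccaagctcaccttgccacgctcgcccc
Kcnc1: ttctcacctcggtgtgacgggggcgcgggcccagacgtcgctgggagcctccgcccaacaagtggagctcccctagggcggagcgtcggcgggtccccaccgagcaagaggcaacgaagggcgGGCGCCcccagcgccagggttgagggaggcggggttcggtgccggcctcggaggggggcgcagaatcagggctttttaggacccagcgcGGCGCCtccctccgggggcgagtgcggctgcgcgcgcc
Kcnma1: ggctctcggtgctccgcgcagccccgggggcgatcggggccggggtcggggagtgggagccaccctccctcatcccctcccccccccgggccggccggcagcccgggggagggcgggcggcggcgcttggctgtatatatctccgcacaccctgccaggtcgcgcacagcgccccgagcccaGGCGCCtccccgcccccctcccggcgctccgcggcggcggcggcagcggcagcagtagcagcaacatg
Kcnk5: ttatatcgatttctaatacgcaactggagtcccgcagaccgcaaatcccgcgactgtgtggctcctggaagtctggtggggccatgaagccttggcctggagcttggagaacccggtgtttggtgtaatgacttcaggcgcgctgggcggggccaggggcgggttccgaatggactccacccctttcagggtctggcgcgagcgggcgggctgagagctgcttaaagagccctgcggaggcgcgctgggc

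GGCGCC stood in the starts of Kcnd2 (1 match), Kcnc1 (2) and Kcnma1 (1), and CAGCTG in that of Kcnd3 (1), while Kcnk5 held none of the motifs. Among all 32851 starts in the table, 9.59% held GGCGCC, 13% CAGCTG, 9.42% AACAAT, 0.301% TTCAGCACC and 12.4% TATAAA. The SMAD-type motif thus occurred before genes of both directions. The 5 windows were rich in G and C, with 68.8% for Kcnd2, 62.8% for Kcnd3, 74.4% for Kcnc1, 79.2% for Kcnma1 and 62.8% for Kcnk5, against a median of 52.4% over all starts. The table had 86 starts for 61 of the 80 members. GGCGCC, made of G and C alone, stood in 12 of these 86 starts and in 6 of the 27 starts of tested members. The 27 starts of 17 tested members had a median GC content of 61.2%, and the 59 starts of untested members one of 56%.

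The first question was which potassium channel genes differed between DRG spheres grown without and with BMP4. The Kcnd2 and Kcnd3 pores of A-type channels, the fast delayed rectifier gene Kcnc1 and the glial inward rectifier gene Kcnj10 were high without BMP4 and at the floor with it. The calcium-activated channel gene Kcnma1 and the leak channel gene Kcnk5 were high with BMP4 and near 4 without it. In limma, at an adjusted p below 0.05 and a log2 difference of at least 1, 8 of the 19 tested members were higher in rNCSC and 7 lower, while 4 were not called. Over all 10320 genes tested, 21.3% were called higher, 22.6% lower and 43.9% either way. The p threshold alone was passed by all 19 members and by 77.9% of all genes tested, and the arrays of 18 of the 19 did not overlap between the groups, against 79.6% of all. Kcna2 was the member with overlap.

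The share called among the tested members is not evidence of a change particular to them, since 13 of the 19 had all 3 arrays of rNCSC or of BMP NCSC under 5 and could have passed the filter only by being higher in another group. With no filter, 11 of the 80 members were called higher in rNCSC and 10 lower, 26.2% in all. That is near the 27.1% of all 18194 genes, of which 12.6% were higher and 14.4% lower. The median log2 difference of the 80 members was 0.08 and that of all genes 0.04. The median absolute difference was 0.27 for the members and 0.38 for all genes. Spinal cord spheres set against BMP NCSC gave 10 members higher and 7 lower, and with no filter 13 and 10, or 28.8% against 28.7% of all genes (14.2% higher, 14.5% lower). There the background over the genes tested was 24% higher, 22.9% lower and 46.9% either way, and 14 of the 19 members had a group with all arrays under 5. All 19 passed the p threshold alone (79.7% of all genes tested), and the arrays of all 19 did not overlap (83.6%). Both comparisons use the same 3 BMP NCSC arrays, so their values stand side by side below and do not support each other.

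**Figure D2:**
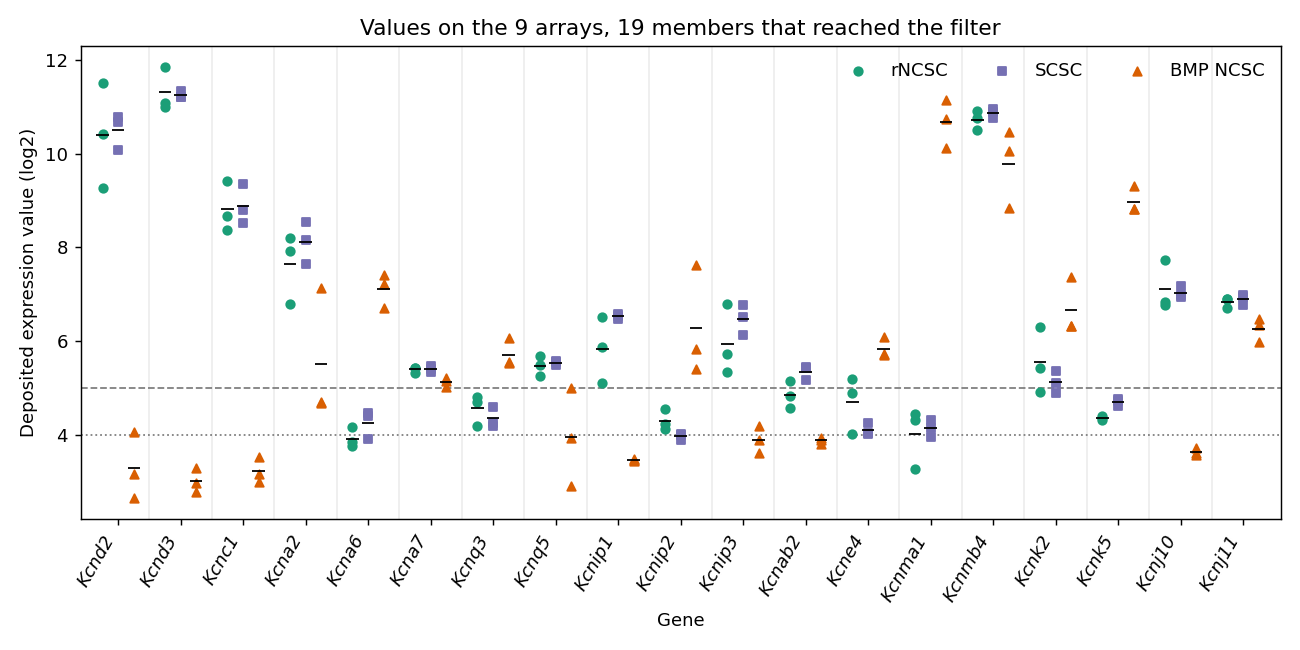
Deposited log2 values (vertical axis) of the 19 tested members (horizontal axis) on every array, with 3 points a group and a bar at the group mean; the dotted line is at 4 and the dashed line at 5. Kcnd2, Kcnd3 and Kcnc1 lie between 8.37 and 11.84 in rNCSC and SCSC and at 4.05 or less in BMP NCSC, and Kcnma1 shows the opposite pattern.

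Among voltage-gated pores, the A-type genes had the greatest differences. Kcnd3 was at 11.08, 11.00 and 11.84 in rNCSC, 11.21, 11.33 and 11.22 in SCSC, and 2.97, 2.79 and 3.29 in BMP NCSC. The BMP NCSC arrays lay far below the other 6, which mixed with each other. The log2 difference was 8.29 (SE 0.22, adjusted p = 7.3e-09) for rNCSC against BMP NCSC and 8.24 (SE 0.22, adjusted p = 7.2e-09) for SCSC against BMP NCSC. Because BMP NCSC was at the floor, these sizes depend on the background correction, and with every value under 4 set to 4 they were 7.31 and 7.25.

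Kcnd2 was at 10.42, 11.51 and 9.26 in rNCSC, 10.07, 10.66 and 10.78 in SCSC, and 2.65, 3.17 and 4.05 in BMP NCSC. Its groups with and without BMP4 did not overlap, but its rNCSC arrays spread more (SD 1.13) than those of any other tested member. The log2 difference was 7.10 (SE 0.56, adjusted p = 4.6e-06) for rNCSC and 7.21 (SE 0.56, adjusted p = 3.8e-06) for SCSC, or 6.38 and 6.49 with values under 4 set to 4. The remaining A-type pore gene, Kcnd1, was not tested. It was at 3.60, 3.48 and 3.83 in rNCSC, 3.51, 3.5 and 3.73 in SCSC, and 4.70, 4.65 and 4.78 in BMP NCSC, so it was low throughout and its BMP NCSC arrays were the higher ones.

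Kcnc1, which encodes a pore of fast-spiking neurons, was at 9.41, 8.67 and 8.37 in rNCSC, 9.36, 8.52 and 8.79 in SCSC, and 3.54, 2.99 and 3.17 in BMP NCSC. The log2 difference was 5.58 (SE 0.30, adjusted p = 4.5e-07) for rNCSC and 5.66 (SE 0.30, adjusted p = 3.9e-07) for SCSC, or 4.82 and 4.89 with values under 4 set to 4. The BMP NCSC arrays were again apart from all the others. Its relatives Kcnc2 and Kcnc4 were under the filter, with Kcnc4 at means of 4.01, 3.97 and 3.97 in rNCSC, SCSC and BMP NCSC.

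Of the Shaker-type genes, Kcna6 and Kcna2 moved in opposite directions. Kcna6, a delayed rectifier pore, was at 3.75, 4.17 and 3.84 in rNCSC, 3.91, 4.40 and 4.47 in SCSC, and 7.21, 6.71 and 7.41 in BMP NCSC. Its log2 difference was -3.19 (SE 0.22, adjusted p = 1.9e-06) for rNCSC and -2.85 (SE 0.22, adjusted p = 3.6e-06) for SCSC. All 3 arrays with BMP4 were above the 6 without it. With its 3 probe sets averaged, Kcna6 had means of 3.55, 3.65 and 4.60 in rNCSC, SCSC and BMP NCSC and was not tested.

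Kcna2, an axonal delayed rectifier pore, went the other way and was unsteady. It was at 7.92, 8.19 and 6.79 in rNCSC, 7.64, 8.15 and 8.54 in SCSC, and 4.67, 4.71 and 7.14 in BMP NCSC, where replicate 3 lay above the lowest rNCSC array. The log2 difference was 2.13 (SE 0.66, adjusted p = 0.017) for rNCSC and 2.60 (SE 0.66, adjusted p = 0.0060) for SCSC. For rNCSC it was no longer called when rNCSC replicate 1 was left out (adjusted p = 0.0501), nor without rNCSC replicate 2 (0.0550), BMP NCSC replicate 1 (0.0607) or BMP NCSC replicate 2 (0.0609). Kcna7 was at 5.39 ± 0.06 (SD, n = 3), 5.41 ± 0.07 and 5.13 ± 0.10 in rNCSC, SCSC and BMP NCSC and was not called, with differences of 0.27 and 0.28 that were under the size limit. Kcna1, Kcna3, Kcna4 and Kcna5 were at the floor by the probe set that stands for each gene. Another probe set of Kcna4 was at 4.14, 5.19 and 3.24 on the BMP NCSC arrays and at 2.54 or less on the other 6.

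Kcnq3 and Kcnq5, which encode pores of the slow M-type current, differed in opposite directions. Kcnq5 was at 5.68, 5.25 and 5.49 in rNCSC, 5.48, 5.58 and 5.56 in SCSC, and 2.91, 3.92 and 5.00 in BMP NCSC, whose arrays were wide apart but below the others. The difference was 1.53 (SE 0.43, adjusted p = 0.010) for rNCSC, or 1.01 without BMP NCSC replicate 1, and 1.60 (SE 0.43, adjusted p = 0.0079) for SCSC. Kcnq3 was at 4.81, 4.70 and 4.19 in rNCSC, 4.25, 4.60 and 4.20 in SCSC, and 5.53, 6.06 and 5.54 in BMP NCSC. Against BMP NCSC it differed by -1.14 (SE 0.21, adjusted p = 9.8e-04) for rNCSC and -1.36 (SE 0.21, adjusted p = 3.1e-04) for SCSC. The rNCSC difference of Kcnq3 was under the size limit without rNCSC replicate 3 (-0.96) or BMP NCSC replicate 2 (-0.97). With probe sets averaged, or with the filter at 6, neither gene was tested. Kcnq1, a pore of heart and epithelia, was at the floor.

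Of the auxiliary subunits, the Kcnip genes showed a split within a family. Their proteins bind the cytoplasmic end of Kcnd pores and alter how fast these inactivate, and the Kcnip3 product is also known as the calcium-regulated repressor DREAM. Kcnip1 was at 5.87, 6.51 and 5.10 in rNCSC, 6.59, 6.53 and 6.48 in SCSC, and 3.46, 3.48 and 3.44 in BMP NCSC. It differed from BMP NCSC by 2.37 (SE 0.29, adjusted p = 7.9e-05) for rNCSC and 3.07 (SE 0.29, adjusted p = 1.4e-05) for SCSC. The BMP NCSC arrays were at the floor and close to each other, and with values under 4 set to 4 the differences were 1.83 and 2.53. With its 4 probe sets averaged, Kcnip1 had means of 4.32, 4.53 and 3.35 and was not tested.

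Kcnip3 was at 5.72, 6.78 and 5.33 in rNCSC, 6.12, 6.77 and 6.52 in SCSC, and 3.89, 4.18 and 3.60 in BMP NCSC, with log2 differences of 2.05 (SE 0.35, adjusted p = 6.5e-04) and 2.58 (SE 0.35, adjusted p = 1.5e-04). Kcnip2 lay on the opposite side. It was at 4.12, 4.23 and 4.55 in rNCSC, 4.0, 4.01 and 3.88 in SCSC, and 5.82, 7.62 and 5.41 in BMP NCSC. Its log2 difference was -1.98 (SE 0.48, adjusted p = 0.0048) for rNCSC and -2.32 (SE 0.48, adjusted p = 0.0019) for SCSC, and the first was -1.32 without BMP NCSC replicate 2, the highest array. Kcnip2 was not tested with probe sets averaged or with the filter at 6. Kcnip4 was at the floor. Thus Kcnip1 and Kcnip3 shared the direction of Kcnd2 and Kcnd3, and Kcnip2 did not.

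Of the 8 members called higher in rNCSC than BMP NCSC, Kcnd2, Kcnip1, Kcnip3 and Kcna2 had their highest rNCSC value in replicate 2 and their lowest in replicate 3. The other 4 did not share this order, and Kcnd3 had the reverse one. The summed level of 12 neuron markers, taken as the log2 of the summed linear values, was 13.33, 13.61 and 13.12 on these 3 arrays, the order of those 4 members. Those 4 were singled out by this order, and single markers were mixed. Gap43 (10.59, 11.36 and 8.71) and Elavl4 (9.96, 10.46 and 9.24) shared it. Map2 (12.89, 12.99 and 12.90), the highest marker, did not, nor did Rbfox3 (5.15, 4.73 and 5.98) and Dcx (3.23, 5.38 and 5.66). The part of the summed level in the channel values was not tested.

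Kcnab2, a beta subunit of Shaker-type channels, was at 4.84, 4.56 and 5.14 in rNCSC, 5.42, 5.18 and 5.44 in SCSC, and 3.90, 3.93 and 3.81 in BMP NCSC. It was called for SCSC (log2 difference 1.47, SE 0.15, adjusted p = 2.1e-05) and just missed the size limit for rNCSC (0.97, SE 0.15). With arrays centred on their medians, or without rNCSC replicate 2, the rNCSC difference was 1.03 or 1.11 and was called. The SCSC call ended with probe sets averaged or with the filter at 6, which left Kcnab2 untested. Kcne4, an inhibitory partner of several voltage-gated pores, was at 4.89, 4.01 and 5.19 in rNCSC, 4.01, 4.25 and 4.05 in SCSC, and 5.72, 6.08 and 5.70 in BMP NCSC, where all arrays were above the others. The difference was -1.14 (SE 0.27, adjusted p = 0.0045) for rNCSC, which shrank to -0.80 without rNCSC replicate 2, and -1.73 (SE 0.27, adjusted p = 3.7e-04) for SCSC. With the filter at 6 it was not tested. Kcne1, Kcne2 and Kcne3 were at the floor.

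For the large-conductance calcium-activated channel, transcripts of the pore gene were high in BMP NCSC alone, and those of an auxiliary subunit gene in all 3 groups. The pore gene Kcnma1 was at 3.26, 4.45 and 4.31 in rNCSC, 4.15, 3.96 and 4.33 in SCSC, and 10.74, 11.15 and 10.11 in BMP NCSC. No array without BMP4 came near those with it. The log2 difference was -6.66 (SE 0.35, adjusted p = 3.6e-07) for rNCSC and -6.52 (SE 0.35, adjusted p = 3.9e-07) for SCSC.

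Kcnmb4, which encodes the beta subunit typical of nervous tissue, was at 10.51, 10.76 and 10.91 in rNCSC, 10.89, 10.96 and 10.76 in SCSC, and 10.05, 10.46 and 8.83 in BMP NCSC. It was thus well above the floor on every array, including the 6 on which the pore gene was near 4. The difference was 0.95 (SE 0.36, adjusted p = 0.036) for rNCSC, under the size limit, and 1.09 (SE 0.36, adjusted p = 0.020) for SCSC. Both rest on BMP NCSC replicate 3, without which they were 0.47 and 0.61. The SCSC call was also lost without SCSC replicate 2 (adjusted p = 0.0553). For rNCSC the difference passed the size limit and was called with arrays centred on their medians (1.01), and without rNCSC replicate 1 (1.06) or BMP NCSC replicate 1 (1.08) or 2 (1.29).

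Kcnmb1, the beta subunit of smooth muscle, and Kcnmb2 were at the floor in all 3 groups. The summed level of 8 smooth muscle and pericyte markers was 7.75 to 8.45 on the arrays without BMP4 and 12.43 to 13.75 on those with it, and its part in the Kcnma1 difference was not tested. Of these markers 4 of the 5 tested, Acta2, Tagln, Pdgfrb and Rgs5, were lower in rNCSC than in BMP NCSC and Notch3 was higher, whereas Cnn1, Myh11 and Des were at the floor in every group. Tagln, Pdgfrb and Rgs5 were under 5 on every array without BMP4, so they could only be called lower. Of all genes tested, 43.9% were called either way.

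Of the 12 tandem-pore leak subunits, the 2 tested ones, Kcnk5 and Kcnk2, were both higher in BMP NCSC. Kcnk5, an acid-sensitive tandem-pore subunit, was at 4.37, 4.39 and 4.32 in rNCSC, 4.73, 4.62 and 4.76 in SCSC, and 8.82, 9.31 and 8.81 in BMP NCSC. The 3 groups were tight, and BMP NCSC stood apart from the others. Its log2 difference was -4.62 (SE 0.14, adjusted p = 1.3e-08) for rNCSC and -4.27 (SE 0.14, adjusted p = 1.9e-08) for SCSC. By this probe set, neither comparison has a group mean under 4. The other of its 2 probe sets was under the filter. With both averaged, Kcnk5 had means of 3.69, 3.81 and 6.50 in rNCSC, SCSC and BMP NCSC.

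Kcnk2, a mechanically and thermally gated leak subunit, was above 4 on every array. It was at 5.44, 6.31 and 4.92 in rNCSC, 4.88, 5.11 and 5.35 in SCSC, and 6.32, 7.36 and 6.31 in BMP NCSC, so that the highest rNCSC array nearly met the lowest BMP NCSC array. Its log2 difference was -1.11 (SE 0.39, adjusted p = 0.027) for rNCSC and -1.55 (SE 0.39, adjusted p = 0.0054) for SCSC. For rNCSC it was not called once rNCSC replicate 1 was left out (adjusted p = 0.0694), nor without rNCSC replicate 3 (0.0839) or BMP NCSC replicate 2 (0.0897), and with only the 6 arrays compared (0.0556). Kcnk1, a leak subunit of brain and kidney, was not tested. It was at 4.36, 4.98 and 6.84 in rNCSC, 4.85, 4.50 and 4.82 in SCSC, and 3.49, 3.35 and 3.53 in BMP NCSC, with rNCSC replicate 3 alone above 5.

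Of the inward rectifiers, Kcnj10 differed and Kcnj11 hardly did. Kcnj10, which encodes the channel with which astroglia take up extracellular potassium, was at 6.78, 7.74 and 6.83 in rNCSC, 6.99, 7.18 and 6.94 in SCSC, and 3.61, 3.71 and 3.57 in BMP NCSC. The log2 difference was 3.48 (SE 0.23, adjusted p = 1.7e-06) for rNCSC and 3.40 (SE 0.23, adjusted p = 1.8e-06) for SCSC, or 3.11 and 3.04 with values under 4 set to 4. Its partner in glial channels, Kcnj16, was at 4.50, 5.00 and 3.45 in rNCSC, 4.0, 4.61 and 4.81 in SCSC, and 3.44, 3.06 and 3.13 in BMP NCSC. Kcnj16 was under the filter, with every BMP NCSC array below the 6 others.

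Beside Kcnj10, 3 of 6 tested astrocyte markers were higher in rNCSC than in BMP NCSC, Slc1a2, Slc1a3 and Aldh1l1, and S100b was lower, while Gfap was at the floor in all 3 groups. Of all genes tested, 21.3% were called higher and 22.6% lower. Aldh1l1 was under 5 on every BMP NCSC array. The summed level of the 8 astrocyte markers was 13.72 to 14.20 in rNCSC, 13.45 to 13.72 in SCSC and 13.28 to 13.62 in BMP NCSC, and its part in the Kcnj10 difference was not tested. Kcnj11, the pore of the ATP-sensitive channel, was at 6.84 ± 0.11 in rNCSC, 6.90 ± 0.11 in SCSC and 6.27 ± 0.26 in BMP NCSC (SD, n = 3 each). Its differences of 0.57 (SE 0.14, adjusted p = 0.0049) and 0.63 (SE 0.14, adjusted p = 0.0027) passed the p threshold but not the size limit. These values are of 1 probe set. The other probe set of Kcnj11 was at the floor, with means of 3.94, 3.86 and 3.80 in rNCSC, SCSC and BMP NCSC. The sulphonylurea receptor genes Abcc8 and Abcc9, whose products complete the ATP-sensitive channel, were at the floor in all 3 groups. The other ATP-sensitive pore gene, Kcnj8, was at 2.85, 2.97 and 3.10 in rNCSC, 2.78, 2.90 and 2.88 in SCSC, and 3.97, 4.81 and 4.12 in BMP NCSC.

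**Figure D3:**
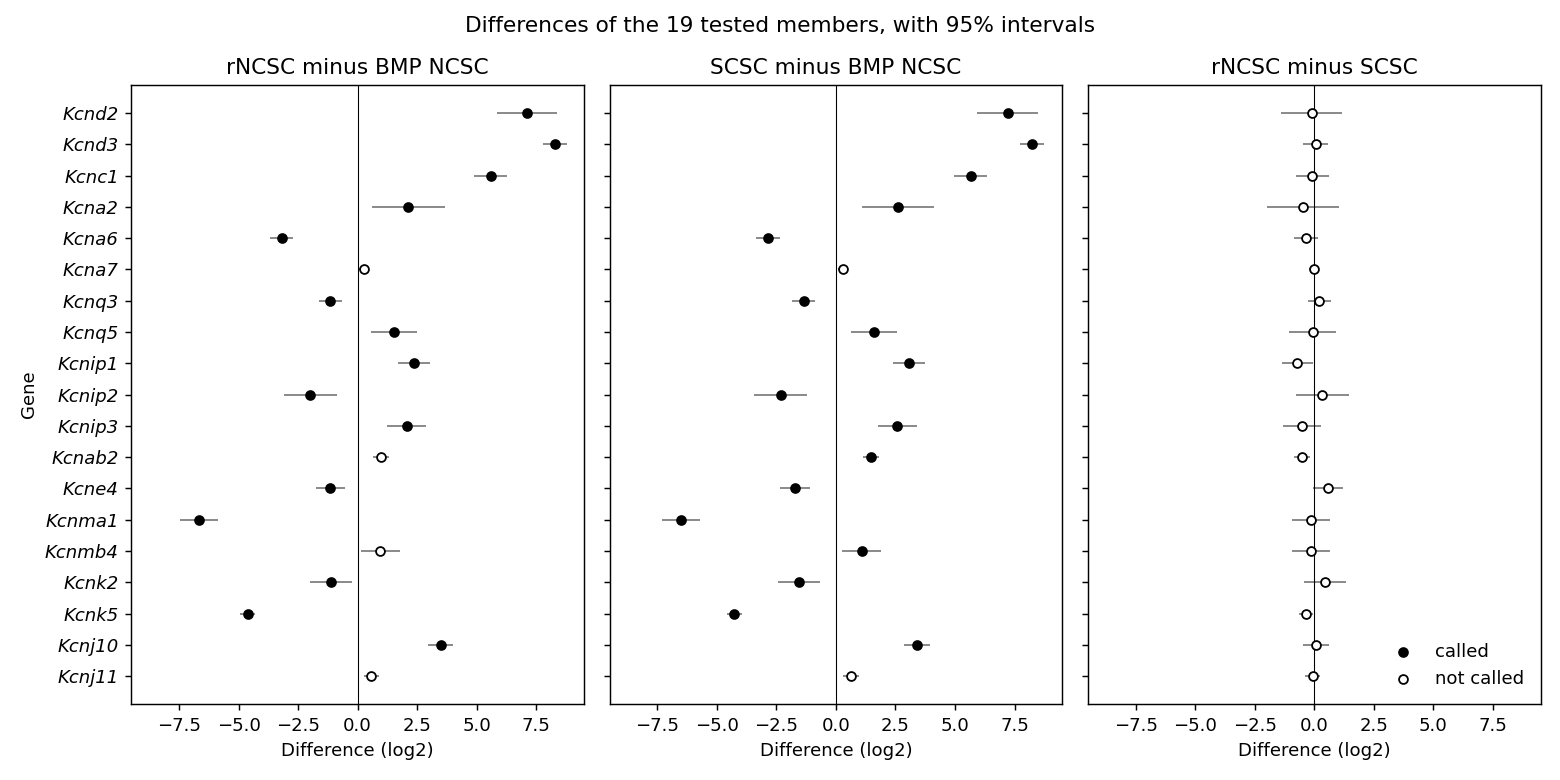
Log2 differences (horizontal axes, with 95% intervals from limma) of the 19 tested members (vertical axis) in the 3 comparisons, filled where called and open where not. The first 2 panels share the BMP NCSC arrays and run from -6.66 to 8.29 and from -6.52 to 8.24, while no difference in the third exceeds 0.71 either way.

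Among the members below the filter, a fit without any filter called 6 for rNCSC against BMP NCSC, of which Kcnk1 (1.94, SE 0.52), Kcnv1 (1.42, SE 0.15) and Kcnj16 (1.11, SE 0.37, adjusted p = 0.030, the least certain of the 6) were higher and Kcnt2 (-2.20, SE 0.54), Kcnj8 (-1.33, SE 0.19) and Kcnd1 (-1.07, SE 0.11) lower. For SCSC, Kcnv1 (1.55), Kcnj16 (1.26) and Kcnh2 (1.10), a pore of the ether-a-go-go family, were higher and Kcnt2 (-2.06), Kcnj8 (-1.45) and Kcnd1 (-1.13) lower. Kcnv1 encodes a silent subunit that forms channels only with other pores, and was at 4.40, 4.92 and 4.97 in rNCSC, 4.99, 4.80 and 4.88 in SCSC, and 3.37, 3.24 and 3.40 in BMP NCSC. Its 3 probe sets each had the BMP NCSC arrays lowest. Kcnt2, a sodium-activated pore gene, was at 5.22, 5.06 and 2.81 in BMP NCSC and at 2.35 or less on the other 6 arrays, so that 2 of 3 arrays carried its difference.

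The small-conductance calcium-activated genes of the Kcnn subfamily stayed low. Kcnn4, the intermediate-conductance channel of many dividing and blood cells, had means of 4.95, 4.91 and 4.36 in rNCSC, SCSC and BMP NCSC. Kcnn1 had means of 3.99, 4.05 and 4.65, and Kcnn2 of 4.53, 3.86 and 4.34, while Kcnn3 was at the floor. None of these 4 was called in the fit without a filter.

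The remaining comparison set rNCSC against SCSC, which differ by the tissue in their labels. limma called none of the 19 tested members, either way, and 1 of the 10320 genes tested (0.00969%). Kcna6, Kcnip2, Kcnk5, Kcnma1 and Kcnq3 were under 5 on every rNCSC and SCSC array and passed the filter only through BMP NCSC. For these genes the comparison is one of low values, and Kcne4 was under 5 on every SCSC array. Unadjusted p fell below 0.05 for 3 of the 19 members and for 1413 of the 10320 genes, and limma with a variance trend called none of the members either. For 3 of the 19 members the rNCSC and SCSC arrays were fully separate, as they were for 20.7% of all genes tested. With no filter, none of the 80 members was called, and 1 of 18194 genes (0.0055%).

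The greatest difference was that of Kcnip1, -0.71 (SE 0.29, adjusted p = 0.34), which was -0.35 without rNCSC replicate 3. Kcnab2 had the smallest p, with a difference of -0.50 (SE 0.15, adjusted p = 0.24) and rNCSC arrays below those of SCSC. Kcnk5 differed by -0.35 (SE 0.14, adjusted p = 0.32), again without overlap but with all arrays compared under 5. Kcne4 differed by 0.59 (SE 0.27, adjusted p = 0.38), or 0.93 without rNCSC replicate 2 and 0.34 without rNCSC replicate 3. That no member passed does not show that the groups are alike. The 95% intervals of the 19 differences ran from -1.99 to 1.44 at their ends, those of Kcna2 and Kcnip2, whereas that of Kcna7 ran only from -0.21 to 0.19.

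The arrays within a group were closest in SCSC. The median SD of the 19 members was 0.46 in rNCSC, 0.13 in SCSC and 0.29 in BMP NCSC, and the SD exceeded 0.5 for 9, 0 and 7 members. The groups had different members at the floor, where values are drawn together, so these SDs are not all of like levels. In BMP NCSC the widest were Kcna2 (SD 1.41), Kcnip2 (1.17) and Kcnq5 (1.04). Replicate 3 was the highest of the BMP NCSC arrays for Kcna2 and Kcnq5 and the lowest for Kcnip2, Kcnmb4 and Kcnma1.

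Several probe sets of a gene did not always tell the same story, mostly because some stayed at the floor. Kcnd2 had 4 probe sets, 3 of them called higher in rNCSC than in BMP NCSC, with differences of 7.10, 5.16 and 5.08, and 1 at the floor in all groups. Kcnd3 had 2 called, at 8.29 and 3.76, and 2 at the floor. Kcnc1 had 3 called, at 5.58, 5.23 and 3.80, and 1 at the floor. For Kcnma1, 3 of 5 were tested and all 3 were called lower, at -6.66, -4.70 and -4.20. Its other probe sets were under the filter but were also highest in BMP NCSC. No member had probe sets called in opposite directions. When all probe sets of a gene were averaged, the rNCSC differences against BMP NCSC of Kcnd2, Kcnd3, Kcnc1, Kcna2, Kcnma1 and Kcnk5 shrank to 4.37, 3.24, 3.68, 1.07, -3.79 and -2.81, and all 6 were still called. Kcna6, Kcnip1, Kcnip2, Kcnq3, Kcnq5 and, for SCSC, Kcnab2 were called by their highest probe set but fell under the filter when averaged, so that these calls ended. The averaged differences of SCSC for the first 6 genes shrank to 4.49, 3.10, 3.56, 1.29, -3.89 and -2.69, and these too were called.

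**Figure D4:**
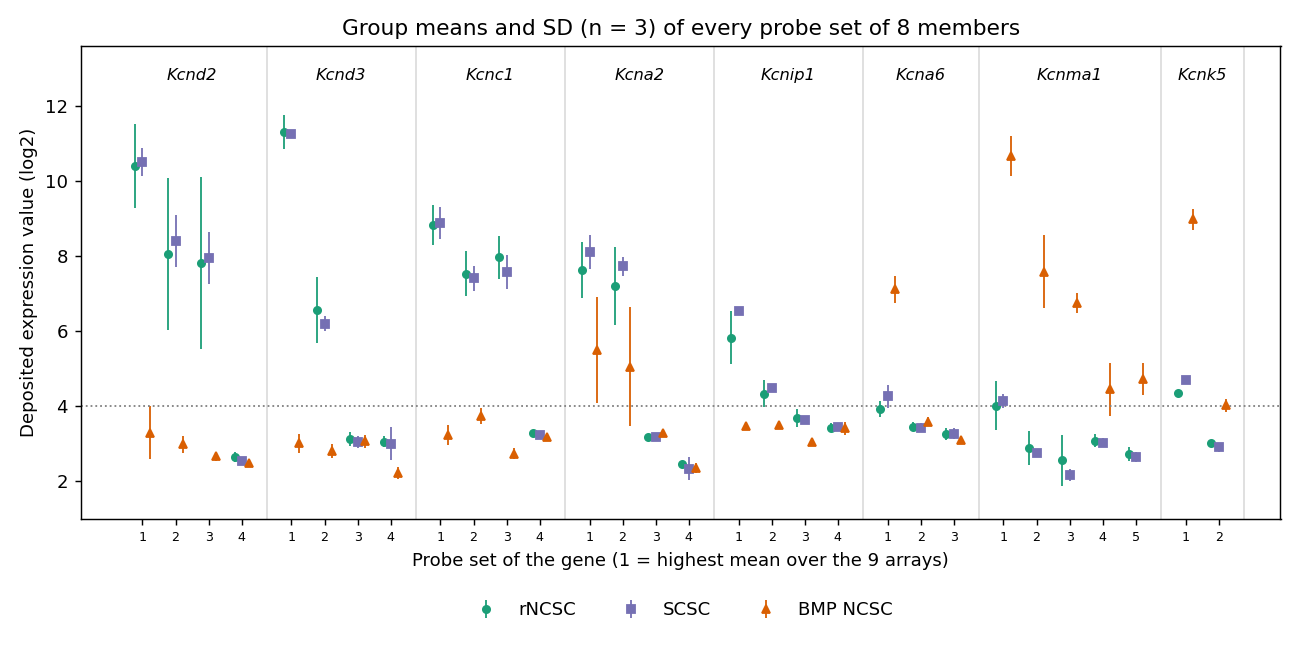
Group means with SD (n = 3) of the deposited log2 values (vertical axis) for every probe set (horizontal axis) of 8 members, ordered within a gene by their mean over the 9 arrays; the dotted line is at 4. For Kcnd2, 3 of 4 probe sets separate the groups and 1 is at the floor, and all 5 of Kcnma1 are highest in BMP NCSC.

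Genes that work with these channels were read from the same fit. Of 12 partner genes with a value, 2 were tested, Ncs1 and Akap9, and neither was called. The Kcnd partner Dpp6 was under the filter, at means of 4.59, 4.46 and 3.35 in rNCSC, SCSC and BMP NCSC, and its relative Dpp10 at 4.05, 3.80 and 3.10. Of 17 pump and cotransporter genes with a value, 10 were tested, and for rNCSC against BMP NCSC 1 was higher and 5 lower, with 1 and 6 for SCSC against BMP NCSC. Of all genes tested, 43.9% and 46.9% were called either way in these comparisons. The FXYD regulators of the sodium pump divided too. Fxyd6 was higher in rNCSC (log2 difference 4.89, SE 0.27), while Fxyd1 (-7.08, SE 0.15), Fxyd3 (-6.43, SE 0.38) and Fxyd5 (-4.64, SE 0.40) were lower. Fxyd1, Fxyd3 and Fxyd5 were under 5 on every array without BMP4 and Fxyd6 on every array with it, so only these directions could be called. The chloride cotransporter genes Slc12a2 (-1.50) and Slc12a7 (-3.58) were lower as well. No HCN or CNG channel gene was tested. Of 11 sodium channel genes with a value, Scn8a was higher in rNCSC than in BMP NCSC (2.76, SE 0.20) and the beta subunit gene Scn3b lower (-2.74, SE 0.34). Scn8a was under 5 on every BMP NCSC array.

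Markers of other cells that the spheres could hold were read from the same fit. Of 10 tested neuron markers, rNCSC had 5 higher and 2 lower relative to BMP NCSC, and the summed level of all 12 was 13.12 to 13.69 without BMP4 and 10.23 to 11.09 with it. Map2 made up most of that sum, with means of 12.93, 12.94 and 10.16 in rNCSC, SCSC and BMP NCSC. Of 5 tested cartilage markers, 4 were lower in rNCSC, with summed levels of 8.66 to 9.36 without BMP4 and 15.01 to 15.59 with it. Those 4, Col2a1, Acan, Cnmd and Hapln1, were under 5 on every array without BMP4. They passed the filter only through BMP NCSC and could only be called lower. Of 7 tested Schwann cell markers, 5 were lower and 1 higher, with summed levels of 10.96 to 11.91 and 13.76 to 13.93. Sox10, Erbb3 and Ngfr among them were also under 5 on every array without BMP4. The neuron markers lower in rNCSC were Snap25 (-1.88) and Syt1 (-2.55), and of all genes tested 43.9% were called either way. Syt1 was under 5 on every array without BMP4, and Rbfox3 and Dcx on every array with it. The part of these marker lists in the channel differences was not tested. Of the sensory neuron list, Runx1 alone was tested. Runx1 was lower in rNCSC but passed the filter only through BMP NCSC, while Isl1, Pou4f1 and Tlx3 were at the floor in all groups. Microglial and erythroid markers were at the floor in all groups, as were the endothelial markers other than Egfl7.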

How the data were processed

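The gene family and the gene lists were chosen with earlier results of these data known, and the members of the family were then taken by symbol. The authors deposited 1 log2 value for each probe set and array, and the submitters' processing notes name GCRMA as the method (version: not given in these sources). GCRMA subtracts a background estimated from the sequence of each probe, equalises the arrays and draws unexpressed transcripts together, so sizes that involve a mean under 4 are uncertain, and a change in total RNA would not show. Array medians lay between 3.99 and 4.03, and the 3 arrays a group limit the precision.

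Of 45101 probe sets, 34958 had 1 gene symbol in the platform annotation, 932 with several were not used, and 9211 were not listed. Symbols were updated through RefSeq gene identifiers (GRCm38.p6, 34754 found). Samples were grouped by title. The probe set of highest mean stood for its gene, which was tested when it reached 5 on at least 3 arrays (10320 genes). limma 3.58.1 in R 4.3.3 fitted group means over all 9 arrays (6 residual and 2.39 prior degrees of freedom), with p-values two-sided and adjusted by Benjamini-Hochberg over the genes tested. The fit was tested on simulated data. Calls needed an adjusted p below 0.05 together with a log2 difference of at least 1. Intervals are 95%.

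Named members were the 12 called members with the greatest non-overlapping difference in each comparison with BMP NCSC, the 4 with the smallest p between rNCSC and SCSC, and the one with the highest mean in each subfamily. Other members were named after their values were seen, as were the genes named from the partner and marker lists. Alternatives varied the filter, probe set choice, floor, centring, variance model, arrays, thresholds and a replicate block.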

Additional observations from a re-analysis of the deposited data

How the results depend on the processing

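The counts of called members kept within 1.5 times their values under every alternative but 2. With the filter at 6 on at least 3 arrays, 4 members were lower in rNCSC and 4 in SCSC than in BMP NCSC in place of 7 and 7, and with the mean of all probe sets of a gene 4 and 4, since 13 members were tested under each. Leaving out each array in turn, with the genes tested kept, gave 8 to 8 higher and 5 to 7 lower for rNCSC against BMP NCSC, 9 to 10 and 7 to 7 for SCSC against BMP NCSC, and 0 to 0 for rNCSC against SCSC. No called difference changed sign under an alternative that was run. The replicate numbers in the titles were not taken to pair the samples, because the correlations of same-numbered arrays, 0.042 to 0.298, exceeded 0.1 in 5 of 9 pairs and not in all. They are a hint of shared numbers all the same. Different-numbered arrays gave -0.245 to 0.118, with 13 of 18 below 0. The correlations are of deviations from the group means, which sum to 0 over the arrays of a group. Those of same and of different numbers are therefore tied to each other, and the second are not separate support. An array correlated best with its own number in another group in 16 of 18 cases, SCSC replicate 1 being the exception. With a replicate block the counts were again 8 and 7, 10 and 7, and 0 and 0. The members with means under 4 in all groups were 36 with the floor at 3.5, 60 with it at 5 and 50 with probe sets averaged, in place of 45.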
